A study of Mus musculus with 5 samples.

Results

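The MHC class I antigen presentation genes examined here were H2-K1, H2-D1, B2m, Tap1, Tap2, Tapbp, Psmb8, Psmb9, Psmb10 and Nlrc5, 10 of the 41028 gene names listed in 5 single-cell matrices from mouse mammary tumours. They were chosen by name, for their place in the pathway, and all 10 had UMIs (unique molecular identifiers, each counting 1 captured transcript molecule) in every library. The tumours were PyMT tumours, in which the polyoma middle T oncogene drives mammary cancer. They were digested and enriched for viable cells. The 5 libraries were 2 from fresh cells on 10x Genomics 3' v2 (fresh 10x 1 and fresh 10x 2), 1 on the same platform from digested cells held overnight in the cold, which the labels give as 24 h at 4 °C, until flow cytometry showed at least 20% less viability (stored 10x), and 2 on BD Rhapsody whole-transcriptome (BD 1, labelled fresh, and BD 2, whose labels give conflicting storage states and which was kept apart from fresh and stored groups). All groups shared the PyMT tumour background, and no tumour-free mammary gland was among them. The sources used here do not give the promoter driving the oncogene, the strain, the age or the number of animals. Nothing in the labels says that the libraries came from separate animals, so the p-values measure the spread between libraries, which may be technical.

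MHC class I molecules display short peptides from inside the cell to CD8+ T cells and are inspected by NK cells. A heavy chain (H2-K or H2-D in mice) folds with the light chain beta-2 microglobulin, and peptides cut by the proteasome are pumped into the endoplasmic reticulum by the TAP transporter and loaded with the help of tapasin. Interferons raise transcription of the whole set and exchange the proteasome's constitutive catalytic subunits for the immunoproteasome subunits, and NLRC5 is a transactivator recruited to class I promoters through a conserved group of elements (the SXY module). Tumour cells that lower these genes can be less visible to T cells, which is why their level in malignant epithelium is followed in mammary cancer models.

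The promoters of the heavy and light chains hold the elements through which the genes are known to be co-regulated, and 8 of the 10 genes were matched by symbol in the RefSeq promoter table (GRCm38.p6, windows of 300 bases around the start). In 3 of them, H2-K1, H2-D1 and B2m, TGACG (the core of the cyclic-AMP response element, the X2 box of the module) was followed, after 20 bases, by ATTGG (the Y box, which the factor NF-Y binds). This pair in either orientation occurred in 31 of 32851 promoters, or 0.0944%. The H2-K1 promoter is shown from 180 bases before the start, and its capitals mark a kappa-B site (GGGATTCCC), TGACG and ATTGG, in that order. It lies at chr17:34000348-34000527 on the minus strand.
H2-K1: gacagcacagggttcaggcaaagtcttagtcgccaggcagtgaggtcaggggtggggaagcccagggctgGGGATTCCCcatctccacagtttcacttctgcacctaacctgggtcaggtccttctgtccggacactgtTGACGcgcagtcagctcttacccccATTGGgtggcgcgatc
The same stretch of B2m is at chr2:122147507-122147686 on the plus strand, and its capitals mark the core of an interferon-stimulated response element (GAAANNGAA), TGACG and ATTGG.
B2m: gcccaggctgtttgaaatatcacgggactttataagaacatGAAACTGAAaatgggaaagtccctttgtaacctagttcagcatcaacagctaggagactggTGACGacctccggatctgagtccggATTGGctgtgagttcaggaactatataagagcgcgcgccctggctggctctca
The paired elements of the 3 genes are set under each other because their outer letters and spacing match while the bases between them differ.
H2-K1: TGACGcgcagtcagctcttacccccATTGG
H2-D1: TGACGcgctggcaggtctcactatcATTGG
B2m: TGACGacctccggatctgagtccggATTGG
These are chr17:34000359-34000388 on the minus strand, chr17:35262993-35263022 on the plus strand and chr2:122147609-122147638 on the plus strand, beginning 41, 101 and 78 bases before the RefSeq starts used throughout for distances. For H2-D1 that start (35263094) lies 364 bases inside the gene as GENCODE annotates it, so its elements fall within that annotation. Over the 30 bases the heavy chains shared 23 with each other, while B2m shared 13 with H2-K1 and 12 with H2-D1. These counts include TGACG and ATTGG, by which the stretches were chosen, so those letters match by construction. Searched on both strands, TGACG was in 20.8% of all promoters in the table, CCAAT, which ATTGG is when read on the other strand, in 37.4%, GGGATTCCC in 0.353% and GAAANNGAA in 8.56%. The kappa-B letters stood in H2-K1 and H2-D1, 110 and 170 bases before the start, and the GAAANNGAA letters in B2m, 139 bases before it. Only exact matches to these letters were searched, so a promoter without a match may still hold a variant of the element. A gamma-activated site (TTCNNNGAA, 8.30% of promoters) stood in Psmb8, 97 bases before its start. Tap1 and Psmb9 held both TGACG and the CCAAT box but not at that spacing, Tapbp held the CCAAT box alone and Psmb8 neither, and these letter matches are descriptions, not measured binding sites.

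The genes lie in 3 places in the genome (GRCm38, GENCODE annotation). On chromosome 17, within the MHC, are H2-K1 (33996017 to 34000347, minus strand), H2-D1 (35262730 to 35267499, plus), Tapbp (33915899 to 33929292, plus) and a tight run of Psmb9 (34181987 to 34187764, minus), Tap1 (34187553 to 34197225, plus), Psmb8 (34197721 to 34201454, plus) and Tap2 (34203527 to 34216321, plus). B2m is on chromosome 2 (122147686 to 122153083, plus), and Psmb10 (105935735 to 105938444, minus) and Nlrc5 (94434356 to 94527272, plus) are on chromosome 8. Psmb9 and Tap1 lie head to head and overlap on opposite strands over 212 bases at their starts, and the rest of both genes does not overlap. H2-K1 and H2-D1 have relatives of like sequence (among them the H2-Q genes) and differ between mouse strains, while the reference is C57BL/6. How that affected their counts was not tested.

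The matrices held 15958 cells with 29166129 to 59957945 UMIs per library and medians of 8926 to 12474 UMIs per cell. Cells were grouped by clustering that left out the 10 genes, every H2- gene and the interferon and class I pathway lists, and clusters were named from marker genes. This gave 10556 epithelial-like cells, 667 macrophage-like, 444 T/NK-like, 1141 fibroblast-like, 392 endothelial-like and 171 mural-like (pericyte and smooth muscle) cells, and 1986 cells in clusters that stayed unnamed were not compared. Because the names came from the markers, and cells rich in markers of another class were left out, marker levels describe the classes only. They do not test the names. The 9 epithelial markers summed to 38.1 to 71.6 UMIs per 10000 in epithelial-like cells. The 8 macrophage markers were there at 0.0418% to 0.114% of their level in macrophage-like cells and the 12 T/NK markers at 0.0249% to 0.0891% of theirs. In the other direction, the epithelial markers were at 1.42 to 3.77 UMIs per 10000 in macrophage-like cells and 2.56 to 4.89 in T/NK-like cells. Libraries shared few barcodes (24 between BD 1 and BD 2, at most 5 between any 10x pair), and 0 of the shared ones had identical counts. Whether the epithelial-like cells were malignant was not measured.

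Levels below are UMIs per 10000 UMIs of all cells of a class in a library. Both platforms count transcript ends or whole-transcriptome primed tags without dividing by length, so levels are compared across cells and not between genes. Summed over the 10 genes, epithelial-like cells had the lowest median of the 6 classes, 23.6, with 20.0 to 24.0 in the 5 libraries. Fibroblast-like cells followed with 23.6 to 35.1 (median 28.6) and mural-like cells with 28.2 to 36.1 (median 28.2), and in fresh 10x 2 the fibroblast-like value (23.6) was below the epithelial-like one (24.0). Endothelial-like cells had 43.7 to 55.3, macrophage-like cells 60.8 to 90.02, and T/NK-like cells 96.6 to 132, and these 3 ranges did not overlap each other or those of the tumour epithelium. By contrast, 18 other genes of the class I pathway summed to 25.02 to 26.8 in the tumour epithelium, overlapping the macrophage-like range of 23.4 to 29.96.

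**Figure D1:**
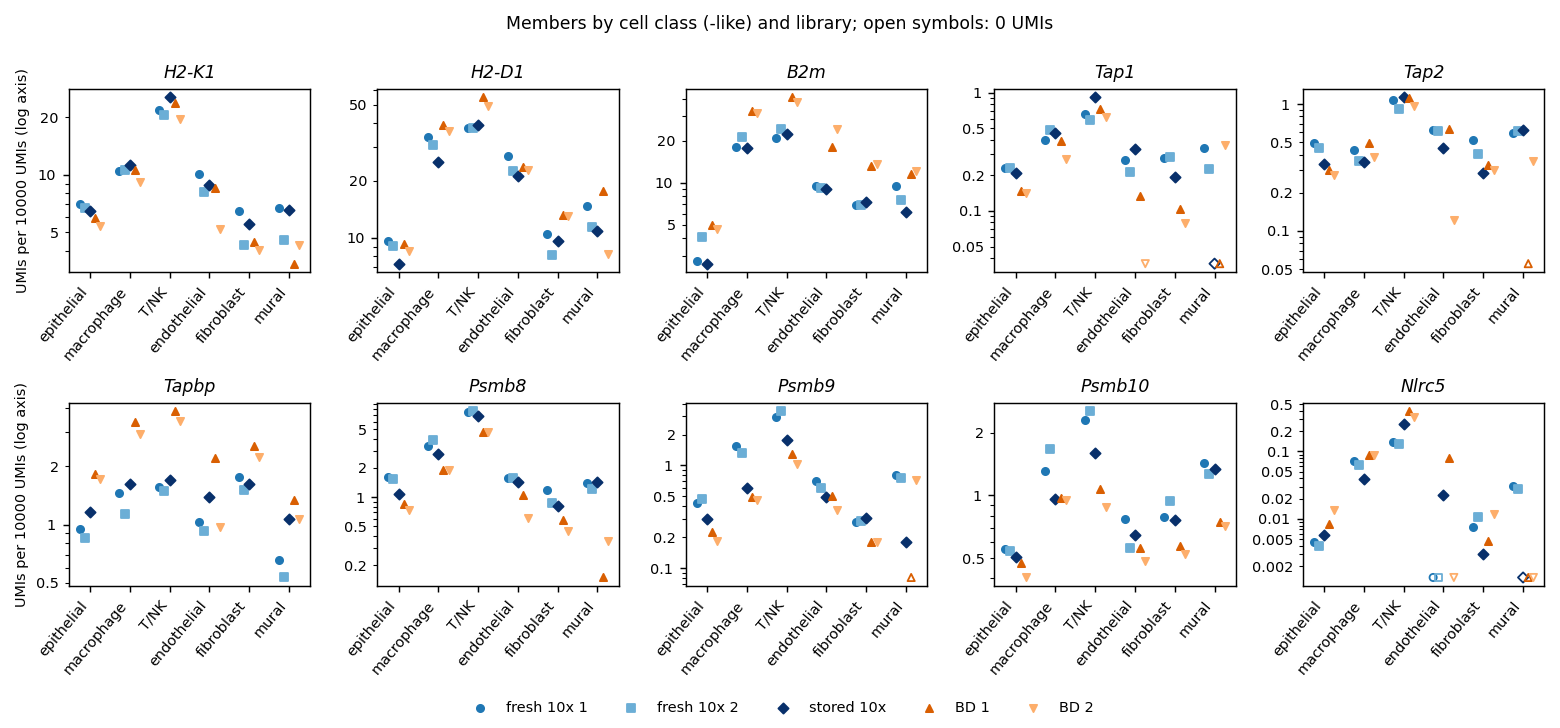
Level of each of the 10 genes (UMIs per 10000 UMIs, log axis with its own scale per gene) by cell class, with 1 symbol per library, blue for 10x and orange for BD Rhapsody, and open symbols where a library had 0 UMIs. For B2m all 5 epithelial-like values lie at or below 4.93, under every value of the other 5 classes, while H2-K1 in epithelial-like cells lies among or above the fibroblast-like values.

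The heavy chains were abundant in the tumour epithelium, yet as a share of UMIs they were well below immune cells. Molecules per cell were not compared. Epithelial-like cells were deeper, with median UMIs of 11259 to 14370, than macrophage-like (4497 to 11136) and T/NK-like cells (2380 to 5068). Values are given in a fixed order of libraries: the fresh 10x pair, the stored library and the BD pair. H2-K1, the K heavy chain, stood at 7.01, 6.73, 6.44, 5.96 and 5.40 in the tumour epithelium. Macrophage-like cells had 10.5, 10.6, 11.3, 10.6 and 9.19, and T/NK-like cells 21.7, 20.5, 25.4, 23.8 and 19.7. Epithelial values did not overlap those of either immune class. In edgeR's quasi-likelihood test over all genes, with library as a block and Benjamini-Hochberg adjustment, H2-K1 was lower in epithelial-like cells by a factor of 1.73 against macrophage-like cells (log2 fold -0.79, SE 0.13, adjusted p = 1.92e-06) and of 2.96 against T/NK-like cells (log2 fold -1.56, SE 0.13, adjusted p = 1.72e-12). Against fibroblast-like cells (6.43, 4.32, 5.55, 4.48 and 4.06) the order turned, and H2-K1 was higher in the epithelium in 5 of 5 libraries (log2 fold 0.38, SE 0.13, adjusted p = 0.00785), though without fresh 10x 2 the adjusted p was 0.0522 (log2 fold 0.33). Against endothelial-like cells, at 5.22 to 10.1, it did not pass (log2 fold -0.12, SE 0.13, adjusted p = 0.446). The levels showed a wider gap than this fold. They were lower in the epithelium in 4 of 5 libraries, at a median of 73.2% of the endothelial-like level. Scaling by total counts moved the median of all genes by -0.24 in this comparison.

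H2-D1, the D heavy chain, was at 9.61, 9.10, 7.32, 9.23 and 8.49 in epithelial-like cells of the 5 libraries. The macrophage-like values were 34.1, 30.9, 25.1, 39.3 and 36.6, and T/NK-like cells had 37.9 to 54.7. Endothelial-like cells, at 21.1 to 27.1, also lay wholly above the epithelium, while fibroblast-like cells, at 8.12 to 13.2, overlapped it. The log2 folds of epithelial-like cells were -1.97 (SE 0.12, adjusted p = 2.28e-16) against macrophage-like, -2.06 (SE 0.12, adjusted p = 1.26e-16) against T/NK-like and -1.16 (SE 0.12, adjusted p = 1.36e-10) against endothelial-like cells. The step to fibroblast-like cells was small, -0.28 (SE 0.11, adjusted p = 0.0273), and was lost with the 10x libraries alone (adjusted p = 0.267) and without BD 1 (0.103), BD 2 (0.120) or stored 10x (0.0567).

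The proportion of the 2 heavy chains differed between classes in every library. H2-K1 made up 38.9% to 46.8% of the UMIs of the pair in epithelial-like cells (median 42.2%), against medians of 23.6% in macrophage-like, 26.6% in endothelial-like, 34.7% in fibroblast-like and 35.2% in T/NK-like cells. The share was higher in the epithelium than in each of these 4 classes in 5 of 5 libraries, by means of 17.7 ± 1.23 (SD, n = 5 libraries), 16.2 ± 2.77, 10.2 ± 4.50 and 7.99 ± 1.78 percentage points in that order. With 5 libraries an exact two-sided sign-flip permutation test cannot give less than p = 0.0625, the value each of these 4 differences had (0.0962 after Benjamini-Hochberg adjustment over 20 such comparisons).

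B2m, the light chain without which no class I heavy chain reaches the surface stably, showed the widest gap among the abundant members. Epithelial-like cells had 2.73, 4.08, 2.62, 4.93 and 4.65, macrophage-like cells 18.0, 21.3, 17.6, 32.4 and 31.6, and T/NK-like cells 20.7, 24.3, 22.4, 40.8 and 37.6. Endothelial-like cells (8.999 to 24.3), fibroblast-like cells (6.89 to 13.5) and mural-like cells (6.15 to 12.1) lay above every epithelial value too. Within a library the epithelium held 14.7% to 19.2% of the macrophage-like level, 11.7% to 16.8% of the T/NK-like level and 34.4% to 59.3% of the fibroblast-like level. The log2 folds were -2.71 (SE 0.14, adjusted p = 1.63e-18) against macrophage-like, -2.67 (SE 0.14, adjusted p = 4.56e-18) against T/NK-like, -1.52 (SE 0.13, adjusted p = 4.65e-12) against endothelial-like, -1.28 (SE 0.13, adjusted p = 1.07e-10) against fibroblast-like and -1.08 (SE 0.15, adjusted p = 1.65e-07) against mural-like cells. B2m and H2-D1 were the genes of the set lower in epithelial-like cells than in all 5 other classes by this test.

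Peptide transport and loading genes showed smaller gaps than B2m. Tap1, which with Tap2 forms the peptide pump, was at 0.228, 0.232, 0.209, 0.148 and 0.141 in epithelial-like cells against 0.272 to 0.481 in macrophage-like cells (log2 fold -1.19, SE 0.19, adjusted p = 2.12e-06) and 0.584 to 0.909 in T/NK-like cells (-1.74, SE 0.22, adjusted p = 1.70e-08). Tap2, at 0.497, 0.448, 0.340, 0.304 and 0.278 in the epithelium, overlapped the macrophage-like values (0.352 to 0.494) and was the member that did not pass there (log2 fold -0.30, SE 0.17, adjusted p = 0.110), while T/NK-like cells lay above it at 0.908 to 1.13 (-1.30, SE 0.17, adjusted p = 5.74e-08). Tapbp encodes tapasin, which holds empty class I molecules at the pump. It stood at 0.954, 0.848, 1.16, 1.83 and 1.73 in the tumour epithelium, below the 1.45, 1.13, 1.62, 3.37 and 2.94 of macrophage-like cells in each library (log2 fold -0.72, SE 0.13, adjusted p = 7.86e-06). Fibroblast-like cells also held more Tapbp (1.51 to 2.53, log2 fold -0.59, SE 0.12, adjusted p = 4.85e-05), whereas neither pump subunit differed from fibroblast-like cells past the threshold (adjusted p = 0.411 for Tap1 and 0.837 for Tap2).

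The immunoproteasome subunits were lower than in immune cells, and against stromal cells the 3 genes differed from one another. Psmb8, the subunit that replaces Psmb5, was at 1.61, 1.55, 1.09, 0.860 and 0.737 in the tumour epithelium. Macrophage-like cells had 3.33, 3.85, 2.80, 1.92 and 1.92 and T/NK-like cells 7.59, 7.66, 6.80, 4.69 and 4.73. Within each platform the classes kept that order without overlap. The log2 folds were -1.31 (SE 0.13, adjusted p = 4.25e-11) and -2.21 (SE 0.13, adjusted p = 1.74e-16). Against fibroblast-like cells Psmb8 was higher in the epithelium in 5 of 5 libraries, at 135% to 180% of their level (log2 fold 0.60, SE 0.12, adjusted p = 6.11e-05). Psmb9, the partner of Psmb6, was at 0.182 to 0.467 in epithelial-like, 0.461 to 1.56 in macrophage-like and 1.03 to 3.37 in T/NK-like cells (log2 folds -1.40, SE 0.17, and -2.39, SE 0.17). Psmb10, which takes the place of Psmb7, was at 0.404 to 0.553, 0.948 to 1.67 and 0.884 to 2.53 in the same classes (log2 folds -1.27, SE 0.14, and -1.38, SE 0.15). Psmb10 was also lower than in fibroblast-like (-0.48, SE 0.13, adjusted p = 0.00144) and mural-like cells (-0.91, SE 0.20, adjusted p = 0.000338), while Psmb9 did not pass against fibroblast-like cells (0.33, SE 0.16, adjusted p = 0.0568).

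The constitutive subunits went the other way. Psmb5, Psmb6 and Psmb7 were higher in epithelial-like than in macrophage-like cells, with log2 folds of 0.65 (SE 0.13), 0.53 (SE 0.12) and 0.43 (SE 0.13). Psmb8 made up 31.4% to 47.2% of Psmb8 and Psmb5 UMIs in epithelial-like cells (median 37.5%), 66.6% to 76.5% in macrophage-like and 74.2% to 87.6% in T/NK-like cells. For Psmb9 with Psmb6 the medians were 10.9%, 33.8% and 57.0%, and for Psmb10 with Psmb7 27.1%, 50.7% and 62.2%. All 6 of these differences had the same sign in 5 of 5 libraries, with an exact sign-flip permutation p of 0.0625, the smallest possible. The fibroblast-like shares of Psmb8 (24.4% to 49.0%) and Psmb9 (9.63% to 21.3%) overlapped those of the epithelium. The share of Psmb10 with Psmb7 did not: it was 35.6% to 52.0% in fibroblast-like against 18.4% to 31.0% in epithelial-like cells, lower in the epithelium in 5 of 5 libraries by a mean of 17.7 ± 1.97 percentage points (SD, n = 5 libraries, exact p = 0.0625). Transcript shares say nothing of how much of each subunit was assembled.

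Nlrc5, the transactivator, was sparse everywhere and lower in the tumour epithelium than in both immune classes. The 5 libraries held 11, 10, 26, 39 and 54 UMIs of it among 1280 to 2832 epithelial-like cells, or 0.00464, 0.00397, 0.00571, 0.00854 and 0.0135 per 10000. Macrophage-like cells had 2, 3, 3, 22 and 14 UMIs (0.0391 to 0.0885 per 10000) and T/NK-like cells 4, 2, 8, 21 and 20 UMIs (0.130 to 0.394 per 10000), so the immune values rest on few molecules. The log2 folds were -3.17 (SE 0.39, adjusted p = 1.23e-08) and -4.81 (SE 0.38, adjusted p = 4.50e-13). Within a library the epithelium held 2.17% to 4.14% of the T/NK-like level, and no difference from fibroblast-like cells, which had 1 to 4 UMIs per library (0.00299 to 0.0117 per 10000), passed (log2 fold 0.19, SE 0.49, adjusted p = 0.733).

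Counted over the set, 9 of 10 genes were lower in epithelial-like than in macrophage-like cells, where 27.5% of all 10744 genes tested were lower. Against T/NK-like cells 10 of 10 were lower, where 22.7% of all genes were. Against endothelial-like cells 2 of 10 passed, both lower, where 60.7% of all genes differed in either direction. Against fibroblast-like cells 6 of 10 passed, H2-K1 and Psmb8 higher and H2-D1, B2m, Tapbp and Psmb10 lower, where 72.1% of all genes differed. Against mural-like cells, with 12 to 65 cells per library in the 4 libraries used, 3 were higher (H2-K1, Tapbp and Psmb8) and 3 lower (B2m, Psmb10 and H2-D1), where 43.2% of all genes differed. With total counts none of the 3 higher genes passed (adjusted p = 0.0818 for H2-K1, 0.0518 for Tapbp and 0.400 for Psmb8). Psmb8 was also lost without BD 1, BD 2 or either fresh 10x library (adjusted p = 0.0630 to 0.180), and H2-D1 without BD 1 (0.0603) or fresh 10x 1 (0.0857). The medians of the 10 log2 folds were -1.29, -1.90, -0.20, 0.10 and -0.28 in that order, and those of all genes 0.20, 0.28, 0.16, 0.12 and 0.21. The shares against endothelial-, fibroblast- and mural-like cells are below or near the background of all genes and are no result about the set. Scaling by total counts moved the median of all genes by -0.27 against T/NK-like, -0.24 against endothelial-like and -0.24 against mural-like cells, and the share of higher calls from 62.2% to 49.1%, 57.1% to 44.7% and 56.5% to 43.4%.

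**Figure D2:**
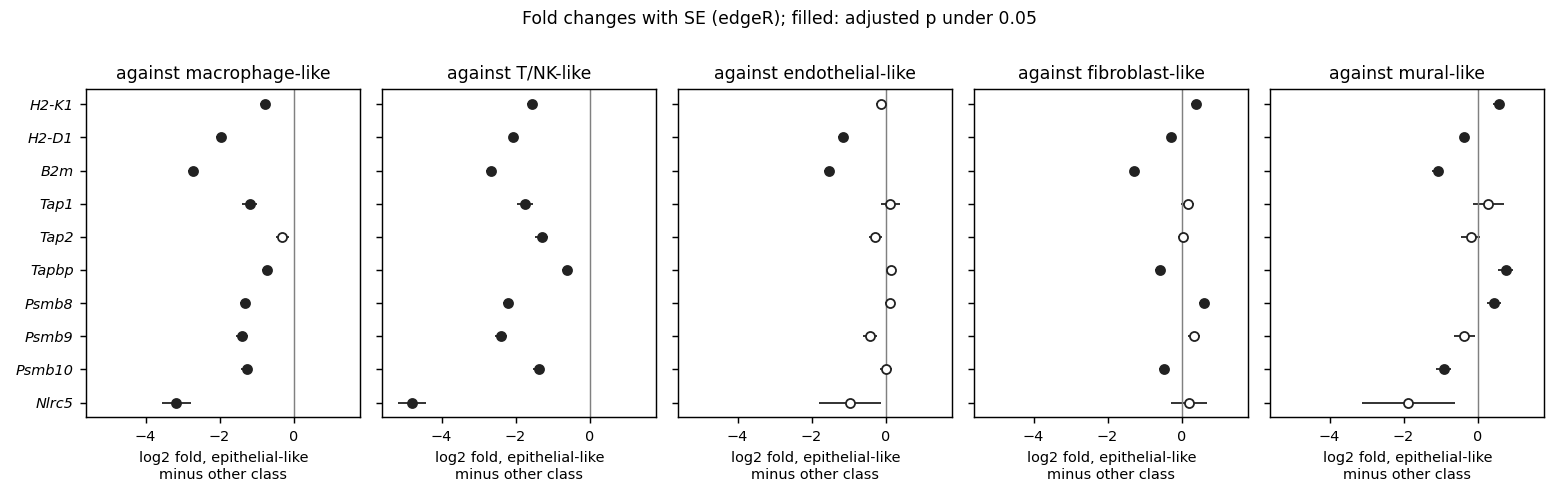
Log2 fold of epithelial-like cells against each other class for the 10 genes, with bars of 1 SE from edgeR's quasi-likelihood fit over 5 libraries and filled symbols for adjusted p under 0.05. Values against macrophage-like and T/NK-like cells all lie below 0, from -0.30 for Tap2 to -4.81 for Nlrc5, while those against fibroblast-like cells lie on both sides of 0.

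Among the other genes of the pathway calls went both ways. Of 18 listed genes 17 were tested against macrophage-like cells, and 4 were higher (H2-T22, Psmb5, Psmb6 and Psmb7), 6 lower and 7 did not pass, beside 39.0% of all genes higher and 27.5% lower. The largest falls were in the nonclassical heavy chains H2-M3, which presents formylated peptides (log2 fold -4.89, SE 0.20, adjusted p = 4.72e-21), and H2-Q7 (-2.62, SE 0.19). H2-M3 stood at 0.0138 to 0.0266 in epithelial-like and 0.418 to 0.688 in macrophage-like cells, and it was also lower than in fibroblast-like cells (-4.13, SE 0.17). Against T/NK-like cells 6 of 17 were higher, led by the chaperone Calr (1.00, SE 0.11) and Psmb6 (0.98, SE 0.13), and 10 were lower, beside 37.4% of all genes higher and 22.7% lower.

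Of 21 listed regulators tested against macrophage-like cells 4 were higher and 11 lower, beside the 39.0% and 27.5% of all genes. Lower were Ifngr1, the ligand-binding chain of the interferon-gamma receptor (0.221 to 0.405 in epithelial-like against 1.98 to 3.03 in macrophage-like cells, log2 fold -3.01, SE 0.13), and Ifnar1, a chain of the type I interferon receptor (-2.82, SE 0.13). Ifngr1 was lower against T/NK-like (-3.56, SE 0.13), endothelial-like (-2.06, SE 0.14) and fibroblast-like cells (-2.39, SE 0.12) as well. Its partner chain Ifngr2 was lower than in macrophage-like cells (-1.67, SE 0.14) but higher than in T/NK-like cells (1.75, SE 0.26). Socs1, an inhibitor of cytokine signalling, was lower than in T/NK-like (-5.23, SE 0.21) and fibroblast-like cells (-3.48, SE 0.18). Higher in epithelial-like than in macrophage-like cells were Nfyc and Nfyb, subunits of the factor that binds the CCAAT box (1.00, SE 0.14, and 0.94, SE 0.19), and the repressive methyltransferase Ezh2 (0.79, SE 0.18). Irf1, an interferon-induced activator of class I promoters, was above fibroblast-like (1.23, SE 0.20) and T/NK-like cells (0.73, SE 0.24). Of 13 tested interferon-gamma-induced genes 9 were lower than in macrophage-like cells (27.5% of all genes) and 1, Iigp1, was higher, and their 16 genes summed to 0.893 to 1.28 in epithelial-like and 4.93 to 9.62 in macrophage-like cells. Ifng itself had 4 to 21 UMIs per library in T/NK-like cells and at most 2 in epithelial-like cells.

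The genes whose levels followed the set most closely over 29 library-by-class sums were Hcst, Ptpn7, Itgb7, Samsn1, AI467606, Cd37, H2afy and Cd69, with Pearson correlations of 0.918 down to 0.910 among 9282 genes compared. Of the members themselves H2-K1 (0.933), Psmb8 (0.918) and Nlrc5 (0.914) followed the mean of the set most closely and Tapbp least (0.435). These points share libraries and are pulled by the T/NK-like sums, so the values describe and test nothing.

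Single tumour epithelial cells differed widely in these transcripts. To compare cells of unequal depth, each was thinned to 2000 UMIs, and 91 of 10556 epithelial-like, 47 of 667 macrophage-like and 84 of 444 T/NK-like cells were too shallow. B2m was then seen in 32.7% to 46.9% of epithelial-like cells (80.9% to 91.9% before thinning), in 91.5% to 98.5% of macrophage-like and in at least 96.3% of T/NK-like cells of each library. H2-K1 was seen in 59.9% to 66.1% of epithelial-like cells and H2-D1 in 68.6% to 76.2%. Psmb8 was seen in 12.7% to 25.8% of them, Tapbp in 18.4% to 28.9% and each of the others in at most 12.3%. No class compared is known to lack class I transcripts. As a measure of free RNA, C1qa, a macrophage gene seen in 80.3% to 93.0% of macrophage-like cells, was in 0.177% to 1.30% of epithelial-like cells. Median depths before thinning were 11259 to 14370 UMIs in epithelial-like, 4497 to 11136 in macrophage-like and 2380 to 5068 in T/NK-like cells.

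**Figure D3:**
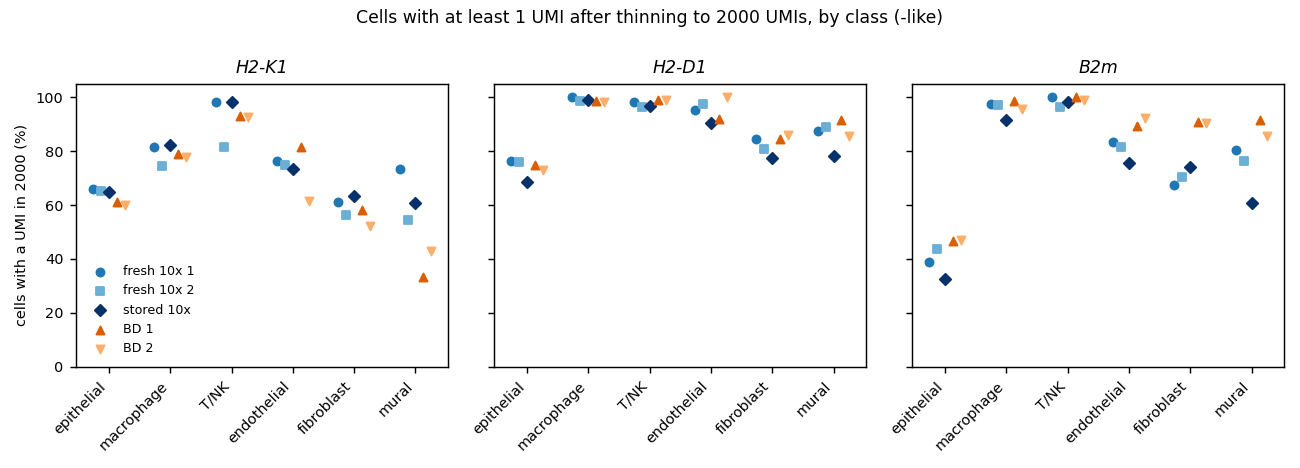
Percent of cells with at least 1 UMI of H2-K1, H2-D1 or B2m (each on its own) after thinning to 2000 UMIs, by cell class, with 1 symbol per library. B2m was seen in 32.7% to 46.9% of epithelial-like cells against at least 91.5% in either immune class.

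Counts of the 3 chains spread beyond counting noise. After thinning, the variance of the UMI count over its mean, which is 1 for pure counting noise, was 2.18 to 2.66 for H2-K1, 2.34 to 3.17 for H2-D1 and 2.61 to 4.23 for B2m in epithelial-like cells. The median of all genes above a mean of 0.05 UMIs was 1.04 to 1.08, and 5.83% to 6.88% of them exceeded 1.5. Tap1, Tap2, Nlrc5, Tapbp, Psmb8, Psmb9 and Psmb10 lay between 0.975 and 1.32. This ratio grows with a gene's level, and the genes above a mean of 0.05 UMIs were not matched to the chains in level. How unusual the chains are among genes of like level was not tested. For the same reason the sparser genes cannot be set against the chains by it. The sum of the 10 genes per cell had a median of 3 to 4 UMIs in 2000, a 90th percentile of 8 to 11 and a highest value of 47 to 63, and 4.13% to 5.56% of epithelial-like cells had 0. Macrophage-like cells had medians of 10 to 16.5 and T/NK-like cells 18.5 to 25. The highest epithelial-like cell of each library lay above the medians of both immune classes.

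Within the epithelium the 3 chains moved together from cell to cell. Per library, over 1274 to 2832 cells, Pearson's r of B2m with H2-K1 was 0.521 to 0.593, of B2m with H2-D1 0.518 to 0.639 and of H2-D1 with H2-K1 0.477 to 0.635. Psmb8 followed the other 9 genes at 0.209 to 0.416. For the sparser genes the correlations were weak, as they must be at these counts, and nothing is read from them. These values share cells, libraries and thinned depth, and carry no test.

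Cells rich in interferon-stimulated transcripts carried the most class I transcripts. A list of 24 interferon-stimulated genes, none of them a member, was summed per thinned cell, and cells at or above the 80th percentile of their library (at least 1 UMI, and at least 2 in fresh 10x 2) were compared with the cells at 0. H2-K1 was at 5.53, 5.03, 5.35, 5.07 and 4.55 in the low and 9.39, 11.9, 8.54, 7.95 and 7.40 in the high range, and B2m at 1.79, 1.86, 1.86, 3.48 and 3.24 against 4.26, 10.7, 4.11, 8.17 and 7.95. All 10 genes were higher in the high range, where 5.73% of all 12621 genes tested were higher. The log2 folds were 1.49 (SE 0.18, adjusted p = 0.00153) for B2m, 1.03 (SE 0.09, adjusted p = 0.000254) for Psmb8, 0.98 (SE 0.11) for Tap1, 0.95 (SE 0.09) for Psmb9, 0.81 (SE 0.08) for H2-K1, 0.80 (SE 0.09) for H2-D1, 0.60 (SE 0.07) for Tapbp, 0.53 (SE 0.07) for Tap2 and 0.49 (SE 0.04) for Psmb10. Nlrc5 had 1.803 (SE 0.29, adjusted p = 0.00788), with an adjusted p of 0.0506 without stored 10x. With the 10x libraries alone the adjusted p was 0.0530 for Nlrc5 and 0.0516 for Tapbp. With no library block no gene passed after adjustment in edgeR's test, although all 10 had an unadjusted p under 0.05.

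Other pathway genes moved in part. Of 17 tested, 9 rose in the high range, where 5.73% of all genes did, led by H2-Q7 (log2 fold 1.52, SE 0.20), H2-M3 (1.23, SE 0.23) and H2-T22 (1.04, SE 0.11), and Psmb5 fell (-0.16, SE 0.03, adjusted p = 0.0164), where 7.95% of all genes fell. Of 22 regulators 17 did not pass, while Irf2 and Stat3 rose, and Ezh2 and Nfyb fell. Of 9 tested interferon-gamma-induced genes 7 rose, against the same 5.73%, led by the GTPases Gbp3 (3.03, SE 0.15) and Iigp1 (2.40, SE 0.20).

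Levels stepped up with the number of interferon-stimulated UMIs, given here as a description. In cells with 0, 1, 2, 3 to 5 and at least 6 interferon-stimulated UMIs in 2000 (6747, 2078, 644, 543 and 453 cells), the 10 genes summed to medians of 18.0, 21.7, 27.9, 43.3 and 77.6 UMIs per 10000 over the 5 libraries. B2m had medians of 1.86, 2.88, 4.64, 11.1 and 17.4, H2-K1 of 5.07, 5.72, 7.38, 11.9 and 19.6, and Psmb8 of 0.885, 1.04, 1.42, 2.34 and 3.79. The top step held 3.29% to 9.73% of the epithelial-like cells, most in fresh 10x 2. Its sum of 68.4 to 89.3 fell within the macrophage-like range of 60.8 to 90.02, taken over all libraries and not within each. Its B2m, at 12.3, 17.4, 14.6, 29.0 and 29.0 in the fixed order of libraries, was below the macrophage-like value of the same library in each. Over all libraries those macrophage-like values ran from 17.6 to 32.4. Among markers of other cells, macrophage markers had medians of 0.119 at 0 UMIs and 0.0978 at 6 or more, T/NK markers 0.0388 and 0.0485, and epithelial markers 63.9 and 70.7 per 10000. Median depth was 13446.5 UMIs per cell at the lowest and 11709.5 at the highest step.

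**Figure D4:**
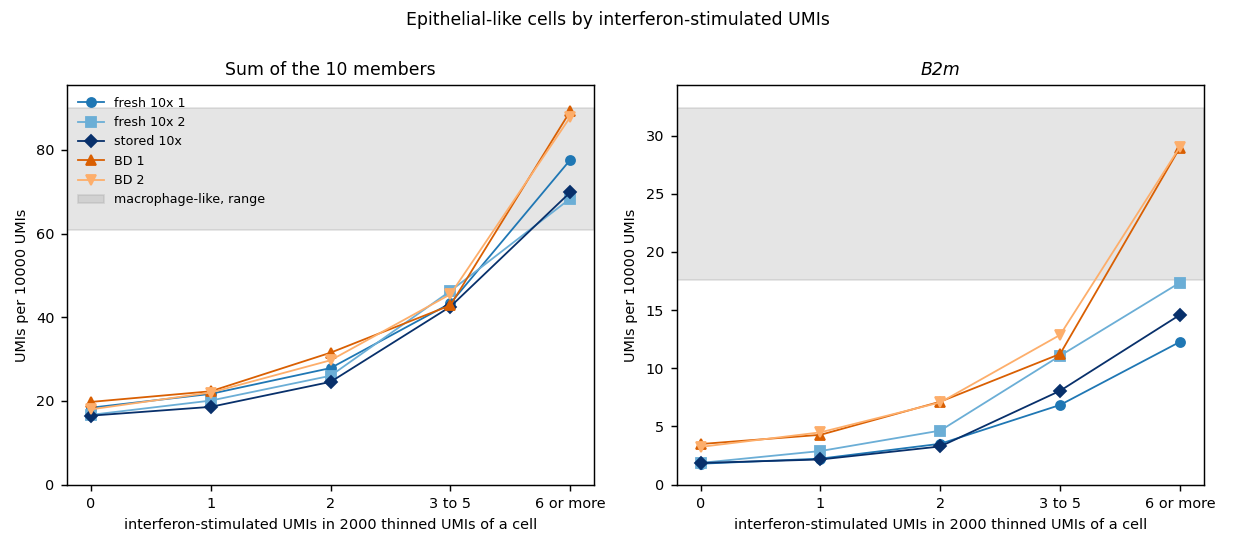
Levels in epithelial-like cells (UMIs per 10000 UMIs) by the number of interferon-stimulated UMIs per thinned cell, with 1 line per library. A grey band gives the range of macrophage-like cells over all libraries. The sum of the 10 genes climbs in every library from 16.5 to 19.8 in cells with 0 to 68.4 to 89.3 in cells with at least 6, inside the band.

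This gradient was also present inside epithelial clusters. Cells with at least 3 interferon-stimulated UMIs had more of the 10 genes than cells with 0 in 29 of 29 pairs of a cluster and a library with enough cells, over 7 clusters, by ratios of 1.49 to 4.66 (median 3.12). The clusters, made without these genes, themselves differed in level, which is given as a description. The sum was highest in a cluster led by Scgb1b27 and Pip, secretory protein genes, at 30.2 to 57.5 with the top value in fresh 10x 2, and this cluster supplied 18.1% to 43.5% of the cells at the top step and 7.57% to 9.36% of those at 0. It was lowest in the cycling cluster led by Ube2c and Birc5, at 14.7 to 19.7, and in the casein-rich cluster led by Csn1s2a, at 16.6 to 21.05. A cluster led by Slpi and Wif1 had a sum of 21.5 to 34.1 (median 30.2), while its median of interferon-stimulated UMIs, 1.56 per 10000, was below that of clusters with less class I such as the Ltf and Aldh1a3 cluster (6.11, with a sum of 24.8).

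**Figure D5:**
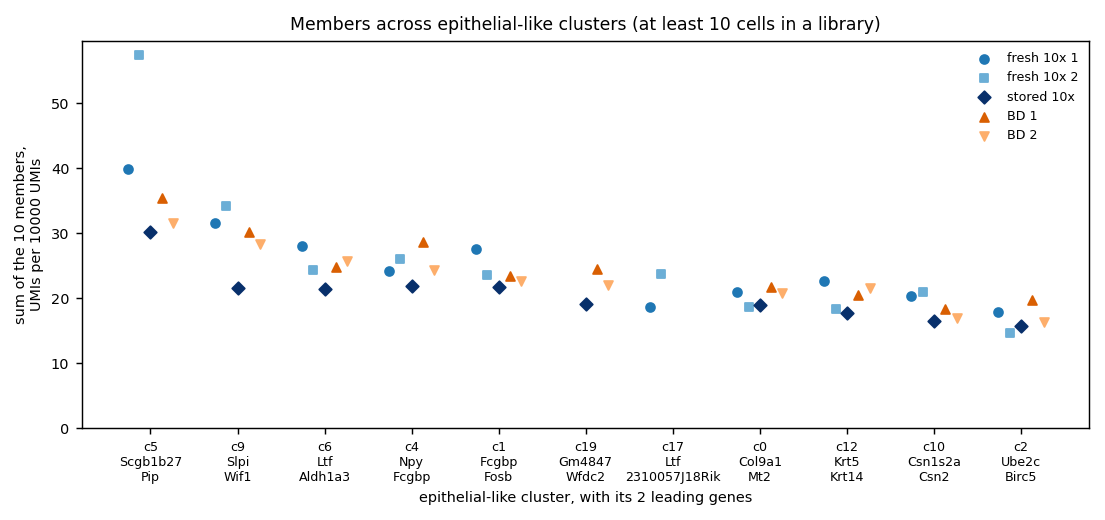
Sum of the 10 genes (UMIs per 10000 UMIs) in each epithelial-like cluster, ordered by median, with 1 symbol per library. Values run from 14.7 in the cycling cluster to 57.5 in the Scgb1b27 and Pip cluster of fresh 10x 2.

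Class I transcripts made up a smaller share of the UMIs of cycling cells. Molecules per cell were not compared. Cells with at least 1 UMI of 10 cell cycle transcripts after thinning (the high range) were compared with cells at 0 (the low range). Of 9 tested members 8 were lower in the high range, where 34.8% of all genes were lower. B2m was at 2.999, 5.01, 2.96, 5.23 and 5.24 in the low and 1.90, 1.96, 1.85, 4.22 and 3.43 in the high range (log2 fold -0.74, SE 0.11, adjusted p = 6.65e-05). Tapbp followed at -0.70 (SE 0.05), Psmb8 at -0.48 (SE 0.08), H2-D1 at -0.43 (SE 0.05) and H2-K1 at -0.27 (SE 0.05), while Psmb9 did not pass (0.03, SE 0.08, adjusted p = 0.754). The constitutive Psmb5 (0.53, SE 0.04) and Psmb7 (0.50, SE 0.04) and the regulator Psme3 (0.75, SE 0.05) were higher in the same cells. Of 24 interferon-stimulated genes 22 were lower there, and the cells were deeper, with median UMIs of 19129 to 25115.5 against 9985 to 13145. Their part in the result was not tested.

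Lineage programmes went with smaller differences. In cells high in basal keratins 3 of 9 members were lower, B2m (-0.28, SE 0.09), H2-K1 (-0.27, SE 0.06) and H2-D1 (-0.20, SE 0.06), and none was higher. Of all genes 13.4% were lower and 25.7% differed in either direction, and with 9 members tested this count is no result about the set. None of the 3 genes passed with the 10x libraries alone (2 of 9 members at an unadjusted p under 0.05 in edgeR's test). Without stored 10x 1 of them, H2-K1, was called, while B2m was also lost without fresh 10x 1 (adjusted p = 0.0847) and H2-D1 without BD 1 (0.0733) or BD 2 (0.0677). In cells high in milk protein transcripts 5 of 9 differed, where 38.1% of all genes did, with B2m (-0.55, SE 0.14, adjusted p = 0.00875) and H2-K1 (-0.25, SE 0.06) lower and Tap2 (0.34, SE 0.08), Tapbp (0.25, SE 0.05) and Psmb10 (0.19, SE 0.06) higher. Scaling by total counts moved the median of all genes there by -0.19 and the share of higher calls from 52.3% to 20.4%, and under it none of the 3 higher genes passed and Psmb10 turned to -0.00436. Psmb10 was also lost without fresh 10x 2, stored 10x, BD 1 or BD 2 (adjusted p = 0.0552 to 0.123). With the 10th and 90th percentiles B2m (adjusted p = 0.0552) and H2-K1 (0.117) were lost, and with the 10x libraries alone H2-K1 (0.0783). By mitochondrial share, a sign of RNA quality, 1 of 9 differed (Tapbp, 0.35, SE 0.11, adjusted p = 0.0338), where 19.9% of all genes did. The BD libraries alone called 8, all higher, and the 10x libraries alone 0, by edgeR's adjusted test and also at an unadjusted p under 0.05. Total counts moved that median by -0.20 and the share of higher calls from 50.4% to 11.7%.

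Storage and platform were compared in epithelial-like cells, with the spread estimated from the fresh 10x pair alone and assumed to hold for the single libraries. Both comparisons share those 2 libraries. For stored against fresh 10x cells 0 of 10 genes passed in edgeR's test, where 1.34% of all 15224 genes did, while 5 had an unadjusted p under 0.05 and DESeq2 also called 0, with 4 at an unadjusted p under 0.05. Psmb9 (-0.55, SE 0.12, adjusted p = 0.0903) and Psmb8 (-0.52, SE 0.11, adjusted p = 0.0745) came nearest, and with no filter on low counts 2 members were called lower. Between BD 1 and fresh 10x, 6 of 10 differed, where 41.2% of all genes did. Psmb9 (-1.16, SE 0.13), Psmb8 (-1.04, SE 0.11), Tap1 (-0.80, SE 0.13), Tap2 (-0.80, SE 0.13) and Psmb10 (-0.36, SE 0.11) were lower in BD 1 and Tapbp was higher (0.86, SE 0.12), and total counts moved the median of all genes by 0.16 and the share of higher calls from 50.5% to 63.0%. Platform, tumour and day cannot be told apart in this comparison. Whether the class differences depended on the platform was tested by an interaction over 50 gene-by-class values, of which 0 passed in edgeR's test, where 0.343% of all such values did. The nearest was Psmb10 against T/NK-like cells, whose log2 difference was 1.01 higher on BD Rhapsody (SE 0.24, unadjusted p = 0.000204, adjusted p = 0.0781).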

How the data were processed

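The deposited matrices hold raw UMI counts per gene and cell, and the submitters' processing notes name Cell Ranger 3.0.1 and mm10; how the BD Rhapsody counts were made, strand use included, is not given in the sources used here. Gene spellings were merged by name, cells with under 200 genes were left out of clustering, and 15619 cells were clustered (2000 variable genes, 30 components, Leiden resolution 1.0, leidenalg 0.10.2) without class I and interferon genes. Clusters were named from fixed markers. No doublet caller was run; 221 cells of named classes with at least 3 markers of another class, at 25% or more of its level, were left out as mixed. Counts were summed per library and class, or epithelial range (at or above the 80th against at or below the 20th percentile after thinning to 2000 UMIs), from at least 10 cells, and tested with edgeR 4.0.16 (TMM, library as block, adjusted p under 0.05 over all genes tested; R 4.3.3). For the interferon, cell cycle and basal keratin lists the low range was the cells with 0 UMIs, most cells of each library. For the cell cycle and basal keratin lists the high range was, in every library, the cells with at least 1 UMI. SE is the log2 fold over the root of F. Counts share depth within a library, so few cells limit the rarer classes. Fewer molecules per cell and a smaller share of a cell's RNA cannot be told apart on a per-10000 scale. Named genes were the members, up to 4 called genes in each direction per list and comparison, and the 8 genes most like the set; from these the text gives a selection. A gene among the listed regulators is not reported here. Members and lists were chosen with earlier results of these data known. Alternatives were DESeq2 1.42.0, total-count scaling, no low-count filter, other clustering, cell and percentile settings, no block, each platform alone and each library left out.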

Additional observations from a re-analysis of the deposited data

How the results depend on the processing

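The counts of members called against macrophage-like and T/NK-like cells stayed within 1.5 times of those given under every alternative run, and leaving out each library gave 8 to 9 and 9 to 10. Of the single genes called, 94 values under an alternative no longer passed and 877 kept their direction and, where a test was made, their call. Only 1 turned: Psmb10 in cells high in milk proteins, -0.00436 with total counts. Against endothelial-like cells DESeq2 called 4 and total counts 5. Against mural-like cells total counts called 3. In milk-protein cells the 10th and 90th percentiles and the 10x libraries alone each called 2. In basal-keratin cells the 10x libraries alone called 0, and leaving out each library gave 1 to 4. By mitochondrial share the 10x libraries alone, leaving out cells above 20% mitochondrial UMIs, no filter and total counts each called 0, the BD libraries alone 8, and leaving out each library gave 0 to 2, with 2 without fresh 10x 1 and 0 without each of the others. With no filter 2 were called between stored and fresh 10x. The cause was not tested in these cases. Without the replicate block (the library, which the sums compared share by construction) the fit called 1 against fibroblast-like, 3 against mural-like, 1 by cell cycle and 0 by interferon-stimulated transcripts, basal keratins, milk proteins and mitochondrial share. Leaving out a fresh 10x library leaves no residual degrees of freedom for storage and platform, so no test was made. DESeq2 gave no adjusted p for Nlrc5 by interferon-stimulated transcripts. Depth limits Nlrc5, and mural- and endothelial-like cells of the BD libraries (7 to 38 cells), most.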

Other observations

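Of the cells outside the compared classes, 2 small immune clusters had class I transcripts at a high share of their UMIs. The neutrophil-like cluster, led by S100a9 and S100a8, had a sum of the 10 genes of 39.4 UMIs per 10000 in stored 10x and 84.5 in BD 1, with 10 cells in each and median depths of 1379.5 and 3430 UMIs. An unnamed cluster led by immunoglobulin and mast cell genes (Igkc, Igha, Mcpt4 and Cpa3), which mixes several cell types, had 128 in fresh 10x 2 (10 cells), 57.7 in stored 10x (14 cells), 73.7 in BD 1 (23 cells) and 75.4 in BD 2 (24 cells). Each of these values is above the highest epithelial-like value of 24.0, and with so few cells no test was made. Of the interferon genes, Ifnb1 had 10, 8, 66 and 61 UMIs in macrophage-like cells of fresh 10x 2, stored 10x, BD 1 and BD 2, and at most 4 per library in epithelial-like cells. In macrophage-like cells of fresh 10x 1 the 6 listed interferon genes together had 0.0362 UMIs per 10000, the lowest level of the 5 libraries.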
